A study of Mus musculus with 2 samples.

Results

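Metallothioneins and zinc handling were followed here through 5 genes out of the 32285 in the count tables. They were Mt1, Mt2 and Mt3, which encode small cysteine-rich proteins that bind zinc and copper, Slc30a1 (ZnT1), which exports zinc across the plasma membrane, and Mtf1, the zinc-sensing transcription factor. The genes were selected by symbol, and the set was chosen because Mt1 stood higher in tumour cells of the treated library. The tumour-cell contrast between the libraries is therefore given as a description, and it supports nothing by itself.

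Subcutaneous tumours of CT26, a colorectal carcinoma line of mouse origin, were raised in BALB/c mice, 5 weeks old and labelled as wild type, and profiled by droplet single-cell RNA sequencing of 3′ ends. One group received WQ-2101, the agent of a study titled for inhibition of PHGDH (the enzyme that opens the serine pathway), at 20 mg/kg into the peritoneum once daily from a tumour size of about 100 mm³, and the other received vehicle. Tumours were taken on day 17 after implantation, digested to single cells and strained, and red cells were lysed; no sort is described, and both libraries carry the same batch label. Each group had 1 library, and the sources used here do not say how many mice stood behind it, so no test of the treatment could be made and no p-value is given. All 95% intervals cover counting error only. The WQ-2101 library held 17293 kept cells with a median of 8048 UMIs (unique molecules), and the vehicle library 13668 kept cells with a median of 10742.5 UMIs. A total of 73 barcodes were shared between the libraries.

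In textbook outline, free zinc activates MTF-1, which binds metal response elements in the promoters of Mt1, Mt2 and Slc30a1 and raises their transcription. Metallothioneins then buffer the metal and SLC30A1 moves it out of the cell, while MTF-1 lowers Slc39a10, which encodes a zinc importer. Mt1 and Mt2 also respond to glucocorticoids, oxidative stress, hypoxia and inflammatory cytokines, so they are read in tumours as general stress genes as well as zinc genes. Mt3 is best known from neurons and answers little to metals.

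Mt1, Mt2 and Mt3 lie in a row on the plus strand of chromosome 8. In GENCODE vM21 on GRCm38, Mt3 spans chr8:94152607-94154146, Mt2 spans chr8:94172664-94173568 and Mt1 spans chr8:94179082-94180327, so that 5514 bases separate the end of Mt2 from the start of Mt1. Slc30a1 spans chr1:191906767-191913247 and Mtf1 spans chr4:124802104-124849800, both on the plus strand. Annotated transcripts of Mt1 and Mt2 share 0 stretches of 50 bases with each other or with Mt3. Antisense genes overlap Mt2 (Gm45774) and Slc30a1 (1700034H15Rik), and a protein-coding gene on the opposite strand overlaps Mtf1. The sources used here do not say whether counting used strand.

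The promoters of the 3 members known as MTF-1 targets are shown, searched for the core of the metal response element. A match to its letters does not show a working element. The windows are the 250 bases before the RefSeq start on GRCm38.p6, plus strand, 5′ to 3′, and capitals mark matches on either strand to the element's core, searched as TGCACNC or TGCGCNC.
Mt1, chr8:94178839-94179088: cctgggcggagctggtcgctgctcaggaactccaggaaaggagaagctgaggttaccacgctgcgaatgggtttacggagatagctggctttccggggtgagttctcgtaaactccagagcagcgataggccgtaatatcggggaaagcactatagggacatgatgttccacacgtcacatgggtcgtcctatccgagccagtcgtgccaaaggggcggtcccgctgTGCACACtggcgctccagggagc
Mt2, chr8:94172368-94172617: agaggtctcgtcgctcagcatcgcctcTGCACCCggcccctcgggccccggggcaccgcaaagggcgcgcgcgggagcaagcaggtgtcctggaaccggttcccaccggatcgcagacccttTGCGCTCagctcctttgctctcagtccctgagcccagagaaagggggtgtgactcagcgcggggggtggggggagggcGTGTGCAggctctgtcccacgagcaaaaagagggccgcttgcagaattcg
Slc30a1, chr1:191906531-191906780: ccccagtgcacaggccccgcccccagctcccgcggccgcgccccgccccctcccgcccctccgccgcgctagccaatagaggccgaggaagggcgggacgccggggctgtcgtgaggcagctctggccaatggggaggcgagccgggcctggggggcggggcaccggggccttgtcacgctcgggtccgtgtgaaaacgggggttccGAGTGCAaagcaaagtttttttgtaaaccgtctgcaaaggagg

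All 5 members matched a RefSeq window. The Mt2 window held 3 matches, none overlapping, and the Mt1 and Slc30a1 windows held 1 each. Of 32851 windows of the same length, 21.4% held at least 1 match and 1.26% held at least 3. The windows of Mt3, Mtf1 and Slc39a10 held 0, which says only that these letters are not there.

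For Mt1 and Mt2 the annotated starts lie upstream of a TATAAA sequence inside the first exon, so the windows above stop short of it. The first exon of the Mt1 transcript that begins furthest upstream held 4 core matches in its 128 bases before TATAAA, and that of Mt2 held 3 in 89 bases. Such stretches of other genes were not searched, so these counts have no share to be read against. The match nearest to TATAAA is shown for each, with its neighbouring bases and the core in capitals.
Mt1, chr8:94179178-94179202: caaacccttTGCGCCCggactcgtc
Mt2, chr8:94172720-94172744: cggagctttTGCGCTCgacccaata
The core ended 16 bases before TATAAA in Mt1 and 17 bases before it in Mt2, and both cores lay on the plus strand.

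Clusters were found without the members among the variable genes and were named from marker lists, so each name means cells like that type. The 8 tumour clusters held 8670 WQ-2101 and 7070 vehicle cells. Of the markers summed for CT26, Hmga2 carried most of the level, with 1208 CPM (UMIs scaled to the total of the class) in WQ-2101 and 1137 CPM in vehicle tumour cells, followed by Igf2bp2 and Igf2bp3. The epithelial keratins Krt7, Krt8, Krt18 and Krt19 were each at or under 0.208 CPM there, so the tumour name rests on the other markers. Markers of macrophages summed to 230 CPM in WQ-2101 and 218 CPM in vehicle tumour cells, against 16312 and 18111 CPM in macrophages of the same libraries. Cluster 9, with 2708 WQ-2101 and 137 vehicle cells, carried RNA of tumour cells and leukocytes together and stayed without a name; its Mt1 was at 4415 CPM in WQ-2101 and 1866 CPM in vehicle.

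Mt1 stood among the most abundant genes of the tumour cells in both libraries. Its level was 3600 CPM in the WQ-2101 library (3590 to 3611) and 1743 CPM in the vehicle library (1735 to 1750). The ratio was 2.07 (2.06 to 2.08), and only 10 of 9998 genes with a mean of at least 5 CPM had a larger log2 ratio of CPM plus 5. By level Mt1 was at rank 36 of all genes in WQ-2101 and rank 90 in vehicle tumour cells. Mt2, its neighbour, had 921 CPM in WQ-2101 and 525 CPM in vehicle tumour cells, a ratio of 1.75 (1.74 to 1.77). Both metallothioneins were thus higher in the treated library, Mt1 by more than Mt2.

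The zinc exporter and the zinc sensor lay on the other side. Slc30a1 had 6.15 CPM in WQ-2101 tumour cells (738 UMIs) and 8.73 CPM in vehicle tumour cells (1075 UMIs), a ratio of 0.704 (0.640 to 0.774). Mtf1 had 19.1 CPM in WQ-2101 and 22.8 CPM in vehicle tumour cells, a ratio of 0.839 (0.794 to 0.887). Mt3 was close to absent, with 15 UMIs in all WQ-2101 tumour cells and 38 UMIs in all vehicle tumour cells. Of the 5 members, 4 passed the minimum of 5 CPM, and Mt1 and Mt2 were past 1.5-fold upward, with log2 ratios of 1.04 and 0.80. Slc30a1 and Mtf1 had log2 ratios of −0.30 and −0.20, short of that fold. Of 9998 genes, 9601 had a higher log2 ratio than Slc30a1 and 8891 a higher one than Mtf1. Across all genes 1.27% were past that fold, 0.84% upward and 0.43% downward, with a median log2 ratio of −0.01. The median of the 4 members was 0.30, a midpoint between the higher and the lower genes that lies near none of them. The set was chosen on this contrast, so the count is a description.

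The difference in Mt1 was present in every tumour cluster. Over the 8 clusters Mt1 ranged from 2015 to 6980 CPM in the WQ-2101 library and from 1072 to 4265 CPM in the vehicle library, and the ratio ran from 1.39 in cluster 6 (Sox5, Pcdh7) to 2.32 in cluster 12 (Iigp1, Gbp2 and other interferon-induced genes). Mt2 was higher in 8 of 8 clusters as well, with ratios of 1.21 to 1.90. Slc30a1 was lower in WQ-2101 in 8 of 8 clusters, and the interval of the ratio lay below 1 in 6 of them. Mtf1 was lower in 8 of 8, with 5 intervals below 1. The groups of 8 clusters overlap in level, since a vehicle cluster at the top had more Mt1 than most WQ-2101 clusters, but within each cluster the order of the libraries was the same. The clusters are parts of the same libraries, 1 for each group, so they are no replicates and these counts are a description. The share of all genes that keep 1 order in 8 of 8 clusters is not given here.

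**Figure D1:**
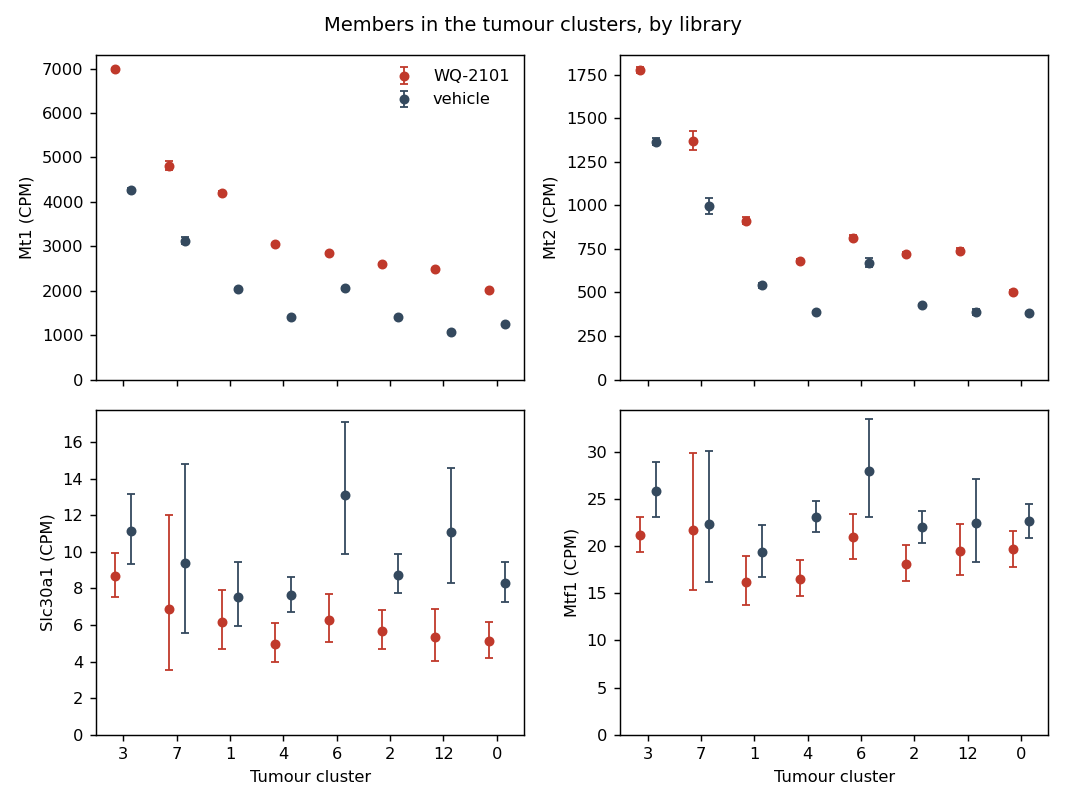
Level of Mt1, Mt2, Slc30a1 and Mtf1 (CPM, each axis from 0) in the 8 tumour clusters, WQ-2101 left of vehicle, with 95% Poisson intervals that cover counting error. Mt1 and Mt2 were higher and Slc30a1 and Mtf1 lower in WQ-2101 in each cluster, and cluster 3 had the most Mt1 in both libraries.

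Cluster 3 held the most of both metallothioneins. Its leading genes were Cryab, a small heat shock protein, Mt2 and Mt1 themselves, which had been left out of the clustering, Hspa1b and Hsph1. Mt1 had 6980 CPM in WQ-2101 and 4265 CPM in vehicle cells of this cluster, and Mt2 had 1777 CPM in WQ-2101 and 1364 CPM in vehicle cells. Next came cluster 7, led by the interferon-induced genes Ifit3 and Isg15, with 4815 CPM of Mt1 in WQ-2101 and 3127 CPM in vehicle cells. The lowest Mt1 of the WQ-2101 library was in cluster 0, led by Tenm3 and the mitotic genes Cenpf and Top2a, with 2015 CPM against 1245 CPM in vehicle. The ends of this order lay far outside one another's counting intervals.

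Cluster 3 made up 23% of WQ-2101 and 14.4% of vehicle tumour cells. Its heat shock genes differ between the libraries, so no comparison of the shares is made. Without cluster 3, Mt1 had 2781 CPM in WQ-2101 and 1464 CPM in vehicle tumour cells, a log2 ratio of 0.92. With every cluster given the same share of UMIs in both libraries, the log2 ratio was 0.84 for Mt1 and 0.56 for Mt2, which is just under 1.5-fold for Mt2.

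Depth differed between the libraries, with a median of 12985 UMIs in WQ-2101 and 16028.5 UMIs in vehicle tumour cells, and the gap was widest in cluster 1, with 5237 and 13498 UMIs. In tumour cells of 10000 to under 20000 UMIs, Mt1 had 3751 CPM in WQ-2101 and 2045 CPM in vehicle, and it was higher in WQ-2101 in each of the other 3 depth ranges. Malat1, a nuclear RNA that is often high in damaged cells, was also higher in WQ-2101 in 8 of 8 tumour clusters, with ratios of 1.07 to 1.58, and its part in these results was not tested.

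Nearly every tumour cell carried Mt1. After each cell was thinned to 3000 UMIs, which left out 522 WQ-2101 and 131 vehicle cells as too shallow, 96.9% of WQ-2101 tumour cells (96.5 to 97.3%, Clopper-Pearson) and 88.7% of vehicle tumour cells (87.9 to 89.4%) had an Mt1 UMI. Without thinning the shares were 99.2% and 98.2%. For Mt2 the thinned shares were 79.1% in WQ-2101 and 63.7% in vehicle, and 95.2% and 91.2% without thinning. T cells, the class with the least Mt1, had an Mt1 UMI in 57.3% of thinned cells in WQ-2101 and 54.0% in vehicle, and an Mt2 UMI in 26.9% in WQ-2101 and 21.9% in vehicle. These shares rest on 234 WQ-2101 and 278 vehicle T cells, since 520 and 372 T cells were too shallow, and the median depths of all T cells were 2334.5 and 2725 UMIs. Shares of about this size can be background from free RNA, and the tumour shares of each gene lie above the T cell share of the same gene.

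The whole distribution lay higher, not a small set of cells. The median thinned tumour cell had 8 Mt1 UMIs in WQ-2101 and 4 in vehicle, and the 90th percentile was 29 UMIs in WQ-2101 and 13 in vehicle. At least 10 Mt1 UMIs were found in 43.3% of WQ-2101 and 16.2% of vehicle tumour cells. The 10% of tumour cells with the most Mt1 held 37.5% of its UMIs in WQ-2101 and 38.4% in vehicle, so the concentration in few cells was close between the libraries. Leaving out the top 1% of cells gave a log2 ratio of 1.07.

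**Figure D2:**
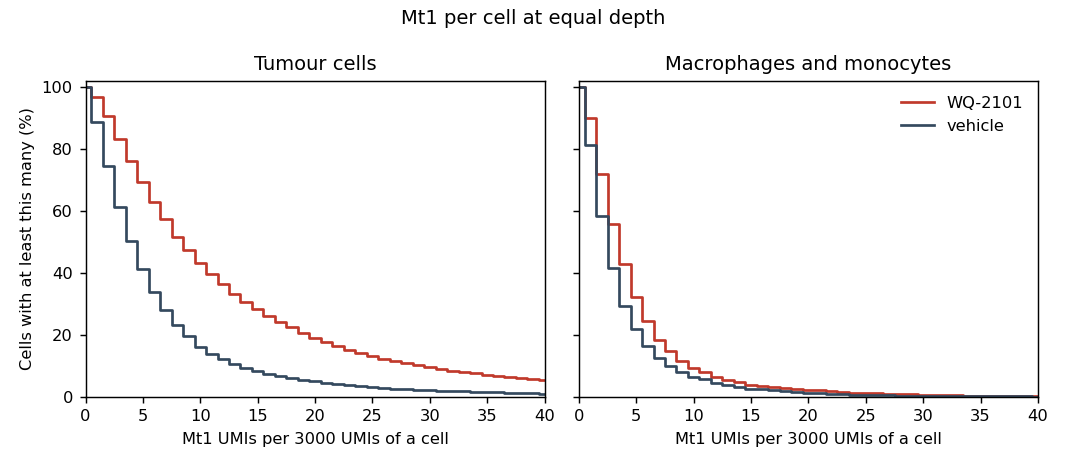
Share of cells (%) with at least the number of Mt1 UMIs on the x axis after thinning to 3000 UMIs per cell, in tumour cells and in macrophages and monocytes, for the WQ-2101 and vehicle libraries. In tumour cells the WQ-2101 curve lies above the vehicle curve throughout, with 43.3% against 16.2% at 10 UMIs. In macrophages it lies above as well, with 72.1% against 58.4% at 2 UMIs and 9.45% against 6.39% at 10 UMIs.

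Tumour cells were then grouped by their thinned Mt1 UMIs, and the other zinc genes were read from all UMIs of each group. Cells with the most Mt1 had the most Slc30a1 and the least Slc39a10 in both libraries. Slc30a1 had 10.6 CPM (9.12 to 12.2) in WQ-2101 cells with 20 or more Mt1 UMIs, and 5.97 CPM (4.69 to 7.48) in WQ-2101 cells with 0 to 1. In the vehicle library it had 14.9 CPM (11.6 to 18.9) in cells with 20 or more and 7.51 CPM (6.61 to 8.50) in cells with 0 to 1. In WQ-2101 the lower 4 groups lay between 4.35 and 5.97 CPM with no steady order, whereas in vehicle the level went up with each group. Within each of the 5 groups of Mt1, Slc30a1 was lower in WQ-2101 than in vehicle cells.

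Slc39a10 was singled out after its values had been seen, for its known repression by MTF-1. Over the groups with 0 to 1, 2 to 4, 5 to 9, 10 to 19 and 20 or more Mt1 UMIs, it had 38.3, 28.8, 22.8, 17.7 and 14.7 CPM in WQ-2101 cells, and 44.7, 31.7, 25.04, 21.8 and 15.8 CPM in vehicle cells. Each step was downward in both libraries. Only a few chosen genes were read over these groups, so the steps have no share of all genes to be read against. The part of MTF-1 in them was not tested. In all tumour cells together Slc39a10 had 23.6 CPM in WQ-2101 and 32.1 CPM in vehicle, and it was lower in 8 of 8 clusters. Mtf1 itself varied less, from 16.5 to 21.02 CPM over the groups in WQ-2101 and from 21.5 to 29.0 CPM in vehicle. Slc39a1, another zinc importer, was higher in WQ-2101 in 5 of 8 clusters and lower in 3. The interval of its ratio lay above 1 in 2 clusters and below 1 in 0.

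Other properties moved along with Mt1. The median depth was 10421.5 UMIs in WQ-2101 cells with 20 or more Mt1 UMIs and 16095 UMIs in those with 0 to 1, and in vehicle cells it was 12300 and 17652.5 UMIs. Cluster 3 held 52.4% of the WQ-2101 and 57.5% of the vehicle cells in the top group. Cryab had 320 CPM in the top and 35.6 CPM in the bottom group of WQ-2101 cells, and 212 and 28.8 CPM in those groups of vehicle cells. Top2a, a gene of dividing cells, had 359 CPM in the top and 584 CPM in the bottom group in WQ-2101, and 301 and 553 CPM in vehicle.

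The same reading was repeated within 10000 to under 20000 UMIs. There Slc30a1 had 10.8 CPM (8.82 to 13.1) in the top and 6.12 CPM (4.35 to 8.36) in the bottom group in WQ-2101, and 14.2 CPM (9.96 to 19.5) and 8.40 CPM (6.85 to 10.2) in vehicle, where the intervals meet. Slc39a10 had 13.7 CPM in the top and 41.6 CPM in the bottom group in WQ-2101, and 15.7 and 50.2 CPM in vehicle. Outside cluster 3, Slc39a10 still had 14.6 against 38.5 CPM in WQ-2101 and 18.4 against 44.6 CPM in vehicle, while Slc30a1 had 8.07 CPM (6.24 to 10.3) against 5.93 CPM (4.63 to 7.48) in WQ-2101 and 10.8 CPM (6.88 to 16.3) against 7.59 CPM (6.67 to 8.61) in vehicle, with intervals that overlap. Within the depth window the groups still differed in depth, with medians of 13003 UMIs in the top and 15414.5 UMIs in the bottom group in WQ-2101, and 13586.5 and 15049 UMIs in vehicle. The window and the removal of cluster 3 were separate readings, and the part of depth in the order was not tested. Outside cluster 3 in WQ-2101, the top group's Slc30a1 also lay above the group with 2 to 4 Mt1 UMIs, at 4.26 CPM (3.53 to 5.11), with intervals that do not meet.

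**Figure D3:**
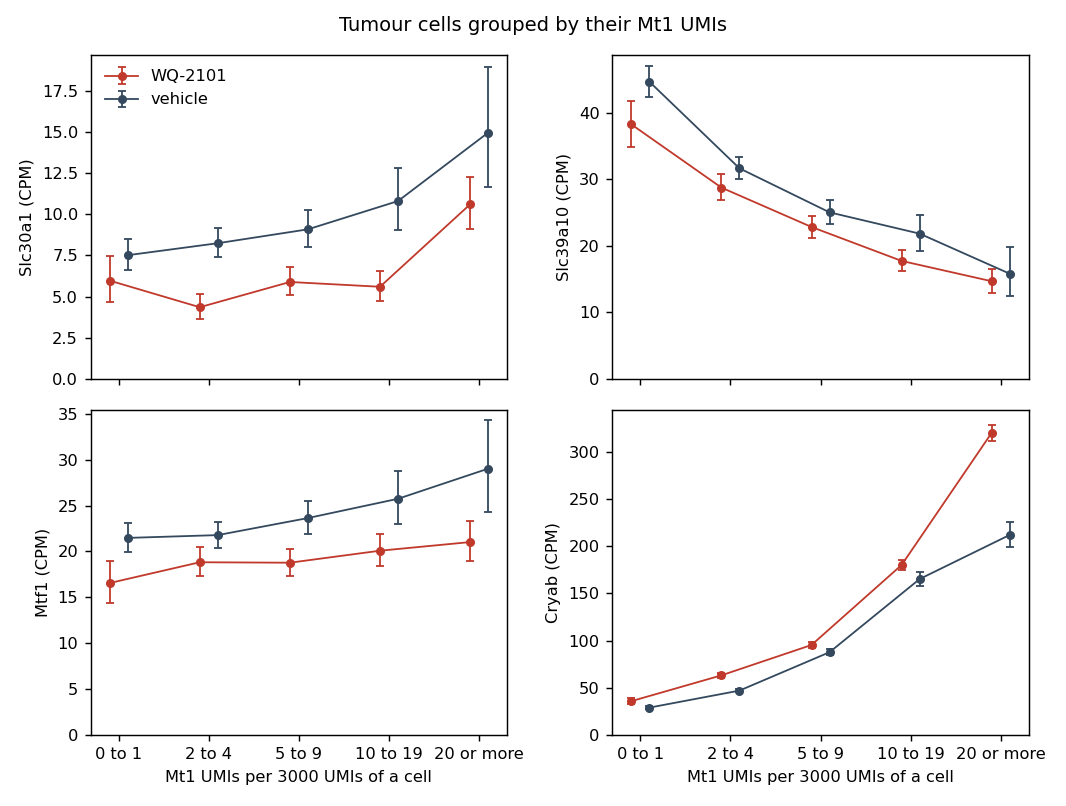
Level (CPM, axes from 0) of Slc30a1, Slc39a10, Mtf1 and Cryab in tumour cells grouped by Mt1 UMIs per 3000 UMIs of a cell, for the WQ-2101 and vehicle libraries, with 95% Poisson intervals. In both libraries Slc39a10 is lowest and Slc30a1 and Cryab are highest in cells with 20 or more Mt1 UMIs, and Slc30a1 lies lower in WQ-2101 in each group.

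Mt1 and Mt2 were read from 3′ UMIs, which are not scaled by transcript length, and their ratio differed by cell class. In tumour cells there were 3.91 Mt1 UMIs per Mt2 UMI in WQ-2101 (3.88 to 3.94) and 3.32 in vehicle (3.29 to 3.35). In macrophages the ratio was 6.33 (6.15 to 6.51) in WQ-2101 and 6.46 (6.28 to 6.64) in vehicle. It was highest among macrophages in cluster 15, led by Chil3, Il1b and MHC class II genes, with 7.54 in WQ-2101 and 8.73 in vehicle. Macrophages thus carried less Mt2 for their Mt1 than tumour cells in both libraries.

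In macrophages and monocytes the metallothioneins were also higher in WQ-2101, by less than in tumour cells. Mt1 had 1431 CPM in WQ-2101 (1416 to 1447) and 1080 CPM in vehicle macrophages (1069 to 1091), a ratio of 1.32 (1.31 to 1.34). Mt2 had 226 CPM in WQ-2101 and 167 CPM in vehicle macrophages, a ratio of 1.35 (1.30 to 1.40). The log2 ratios of 0.40 and 0.42 were short of 1.5-fold, so none of the 4 members that passed the minimum was past it, where 1.66% of 9317 genes were past it, 1.12% upward and 0.547% downward. Tumour markers summed to 87.1 CPM in WQ-2101 and 66.9 CPM in vehicle macrophages, and with the Mt1 that tumour RNA of that amount would bring subtracted, the log2 ratio was 0.29.

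The macrophage value depended on how the cells were chosen. With a gate on shares of marker UMIs in each cell in place of clusters, the log2 ratio was 0.63 for Mt1 and 0.69 for Mt2, past 1.5-fold, and of the 3353 WQ-2101 cells so gated 2975 were also in the macrophage clusters, against 3836 of 3934 vehicle cells. The 3 macrophage clusters ordered alike in both libraries. Cluster 14, led by Mmp12, Mmp13, Spp1 and Hmox1, the heme-degrading enzyme, had the most Mt1, with 2655 CPM in WQ-2101 and 2335 CPM in vehicle. Cluster 13, led by the complement genes C1qa and C1qc, had 1339 CPM in WQ-2101 and 1043 CPM in vehicle, and cluster 15 had 1149 CPM in WQ-2101 and 760 CPM in vehicle. The difference between the libraries was smallest where the level was highest, at a ratio of 1.14 in cluster 14 against 1.51 in cluster 15.

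Slc30a1 did not share the tumour-cell direction in macrophages. It had 11.0 CPM in WQ-2101 (9.71 to 12.4) and 9.44 CPM in vehicle macrophages (8.45 to 10.5), a ratio of 1.17 with an interval of 0.988 to 1.38. That interval does not meet the tumour-cell interval of 0.640 to 0.774. Mtf1 was lower in both, with 17.3 CPM in WQ-2101 and 20.9 CPM in vehicle macrophages, a ratio of 0.829 (0.732 to 0.937).

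Mt1 was higher in WQ-2101 in all 10 named classes, as the plot of levels by class shows. The classes with the most Mt1 in WQ-2101 were fibroblasts (3869 CPM, against 1607 CPM in vehicle), tumour cells, NK cells (3141 CPM, against 649 CPM in vehicle) and endothelial cells (2882 CPM, against 1025 CPM in vehicle, from 35 and 51 cells). Tumour cells and fibroblasts were also the upper 2 in vehicle. T cells were lowest in both, with 556 CPM in WQ-2101 and 452 CPM in vehicle. Mt2 was also higher in WQ-2101, except in T cells, where it had 103 CPM in WQ-2101 and 119 CPM in vehicle. The intervals of Mt2 overlapped between the libraries in T cells, in mural cells (the contractile cells of vessels), with 242 CPM in WQ-2101 and 234 CPM in vehicle, and in B and plasma cells, which had 20 cells in vehicle.

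**Figure D4:**
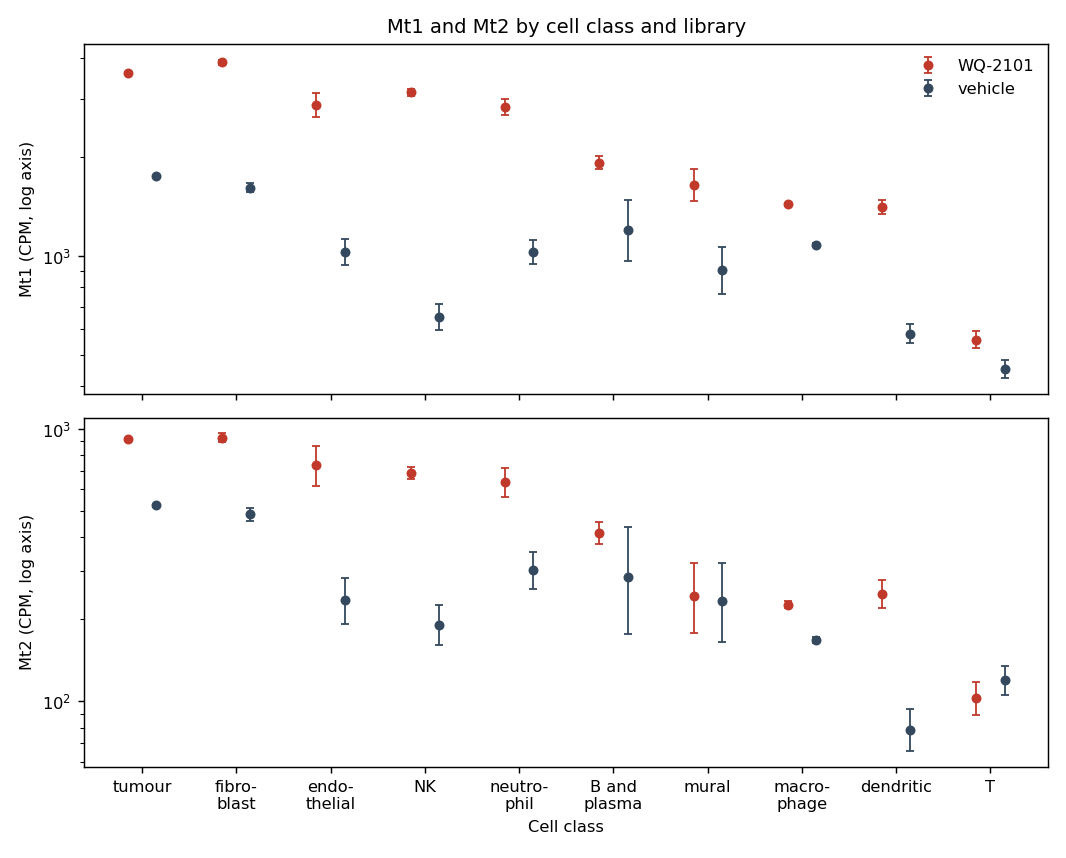
Mt1 and Mt2 (CPM, log axes) in the 10 named cell classes, WQ-2101 left of vehicle, with 95% Poisson intervals that cover counting error. Mt1 lies higher in WQ-2101 in every class, with the widest gap in NK cells (3141 against 649 CPM) and a narrow one in T cells (556 against 452 CPM).

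The NK cells had the largest ratio of Mt1, at 4.84 (4.41 to 5.32). They were led by granzymes (Gzmc, Gzmd, Gzme, Gzmf), the killing enzymes of cytotoxic lymphocytes, and numbered 265 WQ-2101 and 103 vehicle cells. Tumour markers moved with the difference, at 670 CPM in WQ-2101 and 260 CPM in vehicle NK cells, and Krt14, a keratin expressed by the tumour cells, had 161 CPM in WQ-2101 and 21.5 CPM in vehicle NK cells. Tumour RNA in the amount given by the summed markers would bring 1665 CPM of Mt1 in WQ-2101 and 333 CPM in vehicle NK cells. By this sum the part of the measured level was about the same in both, but Krt14 gave another part. Krt14 had 199 CPM in WQ-2101 and 90.2 CPM in vehicle tumour cells, so by this gene NK cells were nearer to the tumour level in WQ-2101. The part of tumour RNA in this result was otherwise not tested.

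Tumour markers were also higher in WQ-2101 in several other classes, but not in all. Fibroblasts had 568 CPM of tumour markers in WQ-2101 and 296 CPM in vehicle, at a ratio of Mt1 of 2.41. Neutrophils had 919 CPM in WQ-2101 and 511 CPM in vehicle, at a ratio of 2.75 and with medians of only 1124 and 981 UMIs. Dendritic cells had 304 CPM in WQ-2101 and 85.1 CPM in vehicle, at a ratio of 2.42. Endothelial cells had 505 CPM in WQ-2101 and 302 CPM in vehicle, at a ratio of 2.81. B and plasma cells went the other way, with 345 CPM of tumour markers in WQ-2101 and 817 CPM in vehicle (20 cells), at a ratio of Mt1 of 1.60. Mural cells had 361 CPM in WQ-2101 and 329 CPM in vehicle, at a ratio of 1.81. In T cells, where the markers were 107 CPM in WQ-2101 and 81.3 CPM in vehicle, the ratio was 1.23 (1.13 to 1.34). The T cell clusters were not alike: cluster 20 had 1148 CPM of Mt1 in WQ-2101 and 592 CPM in vehicle, whereas cluster 22, led by Cd3g and Nkg7, had 645 CPM in WQ-2101 and 674 CPM in vehicle, a ratio of 0.957 (0.824 to 1.11). Differences past 1.5-fold were common in these smaller classes. In NK cells 30.7% of genes were past it (18.7% upward and the rest downward), in fibroblasts 32.2% (15.8% upward, 16.4% downward), in neutrophils 42.0% (24.8% upward, 17.2% downward), in dendritic cells 16.7% (12.3% upward, 4.44% downward) and in T cells 5.88% (2.42% upward, 3.47% downward).

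Tumour cells gave 74.9% of all Mt1 UMIs of the WQ-2101 library, where they held 68.9% of all UMIs. In vehicle they gave 79.7% of the Mt1 UMIs and held 71.4% of all UMIs. The unnamed clusters gave 14.9% of the Mt1 UMIs in WQ-2101 and 3.53% in vehicle, where they held 11.8% and 3.62% of all UMIs. Slc30a1 was low everywhere, and in no class other than tumour cells did the interval of its ratio exclude 1. Mtf1 lay between 10.3 and 26.0 CPM in the named classes of the WQ-2101 library, the lowest being mural cells with 2 UMIs and the highest endothelial cells with 5 UMIs. Neighbouring classes in the WQ-2101 orders of Slc30a1 and Mtf1 had intervals that overlap.

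Mt3 did not follow the order of Mt1 and Mt2, and its level was highest in a small unnamed cluster in both libraries. The unnamed clusters together held 91.2% of the Mt3 UMIs in vehicle (805 of 883). In WQ-2101 they held 53.6% (37 of 69), and tumour cells and T cells held 15 UMIs each. The unnamed cluster 23, led by Ctsk, Acp5, Mmp9 and Atp6v0d2, which are known as genes of osteoclasts, had 117 CPM of Mt3 in WQ-2101 (70.6 to 183) and 348 CPM in vehicle (324 to 373). It numbered 14 WQ-2101 and 175 vehicle cells, and Mt3 was among its leading genes although left out of the clustering. Mt1 had 1444 CPM in WQ-2101 and 1693 CPM in vehicle in this cluster, a ratio of 0.852 (0.744 to 0.973), so here Mt1 was not higher in WQ-2101. Tumour markers in cluster 23 summed to 382 CPM in WQ-2101 and 116 CPM in vehicle. Tumour RNA in that amount would bring 951 CPM of Mt1 in WQ-2101 and 149 CPM in vehicle. Its part in the Mt1 and Mt3 values of this cluster was not tested. Next came T cell cluster 20, led by Ikzf2, Il2ra, Icos and Ctla4, with 13.5 CPM of Mt3 in WQ-2101 (3 UMIs) and 34.4 CPM in vehicle (16 UMIs). In T cells together Mt3 had 7.26 CPM in WQ-2101 and 11.0 CPM in vehicle, a ratio of 0.657 (0.322 to 1.30), whereas tumour cells had 0.125 CPM in WQ-2101 and 0.309 CPM in vehicle and macrophages 0.0850 and 0.286 CPM.

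**Figure D5:**
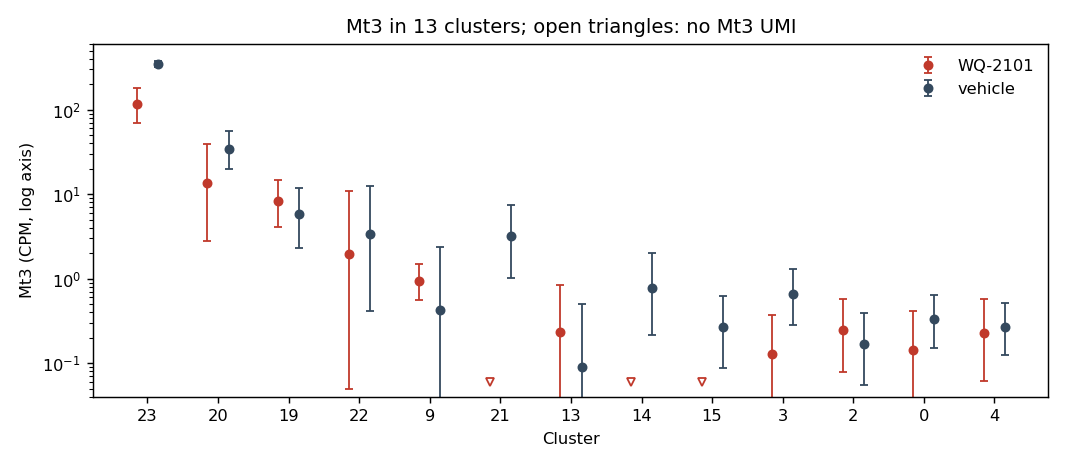
Mt3 (CPM, log axis) in 13 of the clusters, WQ-2101 left of vehicle, with 95% Poisson intervals; open triangles at the foot mark clusters with no Mt3 UMI. Cluster 23 (117 CPM in WQ-2101, 348 CPM in vehicle) lies far above the T cell clusters 20, 19 and 22, and the tumour (3, 2, 0, 4) and macrophage (13, 14, 15) clusters plotted lie under 0.8 CPM.

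Zinc transporters of 2 families were read as lists in tumour cells, where 1.27% of all genes were past 1.5-fold. Of 10 zinc exporters and vesicle loaders of the SLC30 family, 6 passed the minimum and 0 were past 1.5-fold, with a median log2 ratio of −0.12. Slc30a1 had the lowest log2 ratio of them, at −0.30. The 2 most abundant, Slc30a4 and Slc30a9, had 41.8 and 38.7 CPM in WQ-2101, and 38.7 and 37.6 CPM in vehicle tumour cells. Of 14 importers of the SLC39 family, 9 passed and 0 were past the fold, with a median of −0.03, and Slc39a10 had the lowest log2 ratio of them, at −0.37. The 2 most abundant, Slc39a6 and Slc39a11, had 62.3 and 55.7 CPM in WQ-2101, and 69.6 and 49.1 CPM in vehicle. In macrophages the same 2 families had 0 genes past the fold, where 1.66% of all genes were past it.

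Copper and iron genes likewise had 0 of 10 and 0 of 9 passing members past 1.5-fold in tumour cells. The copper chaperone Atox1 had 453 CPM in WQ-2101 and 403 CPM in vehicle, and Commd1, which takes part in copper export, had 86.4 CPM in WQ-2101 and 113 CPM in vehicle. The ferritin genes Fth1 and Ftl1, which encode the iron store, had 2289 and 1599 CPM in WQ-2101, and 2659 and 1780 CPM in vehicle. Within the metal genes, a difference past the fold was thus found for Mt1 and Mt2 and for none of the other passing genes on these lists. Over all genes only 1.27% were past it, so counts of 0 in lists this short are near that share. They set the other metal genes apart from no other genes, and Mt1 was the gene for which the set was chosen.

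Lists of genes that share known inducers with metallothioneins gave mixed counts in tumour cells. Over all genes there, 0.84% were past 1.5-fold upward and 0.43% downward, with a median log2 ratio of −0.01. Hypoxia genes had 6 of 11 passing members higher in WQ-2101, with a median log2 ratio of 0.63; Ankrd37 was at 43.7 CPM in WQ-2101 and 17.4 CPM in vehicle, and Kdm3a, a histone demethylase with the lowest log2 ratio of the list, at 50.2 and 44.2 CPM. Heat shock genes had 3 of 9 higher (Hspa1b, Hsph1, Dnajb1), with a median of 0.14; the chaperone Hsph1 was at 244 CPM in WQ-2101 and 120 CPM in vehicle, and Hspe1 at 848 and 806 CPM. Interferon gamma genes had 8 of 14 higher, with a median of 0.67, from the chemokine Cxcl9 with 30.3 CPM in WQ-2101 and 14.1 CPM in vehicle to the feedback inhibitor Socs1 with 37.0 and 45.8 CPM.

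Glucocorticoid targets had 1 of 9 higher, with a median of 0.11. That gene was Ddit4, with 30.9 CPM in WQ-2101 and 17.7 CPM in vehicle, and it is also induced by hypoxia. Sgk1 had the lowest log2 ratio of that list, with 252 CPM in WQ-2101 and 349 CPM in vehicle. Targets of NRF2, the factor of the oxidative stress response, had 0 of 10 past the fold and a median of −0.23; the cystine carrier Slc7a11 was at 20.2 CPM in WQ-2101 and 17.0 CPM in vehicle, and Gclm, of glutathione synthesis, at 55.8 and 74.7 CPM. Targets of IL-6 and STAT3 had 0 of 7 past the fold and a median of 0.07. The receptor Osmr was at 16.9 CPM in WQ-2101 and 10.2 CPM in vehicle, and the feedback inhibitor Socs3 at 69.7 and 105 CPM.

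Immediate early genes had 2 of 12 lower (Fos, Fosb), with a median of −0.19, and Fosb was at 152 CPM in WQ-2101 and 278 CPM in vehicle, while Dusp1, with the highest log2 ratio of that list, was at 200 and 170 CPM. The 2 passing genes of the keratin list, Krt14 and Slurp1, were both higher, with Slurp1 at 43.1 CPM in WQ-2101 and 11.9 CPM in vehicle. Matrix genes had 2 of 10 higher, with a median of −0.16. They ran from Tnc at 66.8 CPM in WQ-2101 and 33.7 CPM in vehicle to Col3a1 at 375 and 518 CPM. Replication and mitosis genes had 0 of 11 past the fold each, with medians of −0.22 and −0.10. Mcm5 was at 93.3 and Gins2 at 37.0 CPM in WQ-2101, against 94.4 and 48.4 CPM in vehicle. Aurka was at 42.5 and Cenpf at 205 CPM in WQ-2101, against 36.0 and 242 CPM in vehicle. These lists were written with earlier results of the same libraries known, so their counts are no independent evidence.

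In macrophages 8 genes of these inducer and state lists were past the fold upward and 3 downward, against 22 and 2 in tumour cells, where over all genes 1.12% and 0.547% were so in macrophages and 0.84% and 0.43% in tumour cells. The order was not the same in each list. Heat shock genes had 3 of 10 higher, with Hspa1b at 145 CPM in WQ-2101 and 44.9 CPM in vehicle, while hypoxia genes had 0 of 11, with Vegfa, the vessel growth factor, highest at 240 and 163 CPM. Interferon gamma genes had 3 of 16 higher, led by Gbp5 with 35.6 CPM in WQ-2101 and 16.2 CPM in vehicle. NRF2 targets had 1 of 8 lower, Gsr, with 61.9 CPM in WQ-2101 and 96.6 CPM in vehicle, and IL-6 and STAT3 targets had 1 of 8 higher, Saa3, an acute-phase protein, with 9.01 and 2.95 CPM. Among the iron genes Hmox1 had the lowest log2 ratio, −0.53, with 222 CPM in WQ-2101 and 321 CPM in vehicle. Over the class it and Mt1 thus lay on opposite sides. By cluster Hmox1 was lower in WQ-2101 in 2 of 3 and higher in 1, whereas Mt1 was higher in all 3.

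The genes whose pattern was most like that of Mt1 were found by Pearson's r on log2 of CPM plus 5. Over the 8 tumour clusters in both libraries, 16 points that share libraries, the highest of 6722 genes were Atp6v0b (0.98), Higd1a (0.98), Mt2 (0.97), Bnip3 (0.96), Gpi1 (0.95), Jmjd6 (0.95), Ddit3 (0.94) and Aldoa (0.94). Among them Atp6v0b encodes a subunit of the vacuolar proton pump, Higd1a and Bnip3 are hypoxia-induced mitochondrial proteins, Gpi1 and Aldoa are glycolytic enzymes and Ddit3 is a factor of the unfolded protein response. Atp6v0b had 158 CPM in WQ-2101 and 114 CPM in vehicle tumour cells, and Higd1a had 333 CPM in WQ-2101 and 204 CPM in vehicle.

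Over the 10 named classes in both libraries, 20 points, the highest of 6910 genes were Mt2 (0.94), Ecm1 (0.91), Eif4ebp1 (0.90), Fam162a (0.88), Pafah1b3 (0.87), Krt14 (0.87), Crabp2 (0.86) and Cdk4 (0.85). Krt14 and Crabp2 are also genes of the tumour cells, whose markers differ between the classes and libraries as given above. Over the tumour clusters Slc30a1 had an r of −0.17 with Mt1 and 0.84 with Mtf1. These are descriptions over points that share a library and its depth.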

How the data were processed

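The authors deposited raw UMI counts, not normalised, 1 matrix a library. Cell Ranger 7.2.0 wrote them, per the file headers, but version 2.2.2 stands in the submitters' processing notes, with the build GRCm38. The sources used here do not say which annotation was used, or whether introns, doublets or free RNA were treated. The deposited barcodes (18142 WQ-2101, 14374 vehicle) held 185587327 and 184754398 UMIs, with at least 500 each.

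Counts were analysed with Python 3.11.15, scanpy 1.11.5, igraph 0.11.9, numpy 2.4.6, scipy 1.17.1 and pandas 2.3.3. Cells had at least 500 UMIs, 300 genes and at most 15% mitochondrial UMIs. Scrublet called 753 WQ-2101 (4.17%) and 545 vehicle (3.83%) doublets, which were left out. The 2000 most variable genes without Mt1 to Mt4, Slc30a1 and Mtf1, 30 components and 15 neighbours gave 24 Leiden clusters at resolution 1, with no integration of the libraries. Clusters were named from marker lists, with B and plasma cells joined. The naming rule, the cell gates and the restriction by depth or cluster were set after the data were seen, and so were the gene lists, since members and lists were chosen with earlier results of these data known.

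Raw counts were summed per class and library and divided by the UMIs of that class (CPM), with exact Poisson 95% intervals and exact conditional intervals of the ratio. The log2 ratio is of CPM plus 5, a pseudocount that understates changes of low genes. A gene needed a mean of 5 CPM and counted at 1.5-fold. The Mt1 brought by tumour RNA was set as the class's share of the tumour-marker level times the tumour Mt1. Intervals, the code of which was tested on simulated data, cover counting error only: PCR, animals and dissection are not in them. Genes were named by a fixed rule: the members, in each metal list the 2 most abundant and any past 1.5-fold, in each other list the highest and lowest log2 ratio, and the 8 most like Mt1. Slc39a10, Slc39a1, Cryab, Malat1, Top2a and the genes that lead clusters were named outside it. Positions come from GENCODE vM21 and promoters from RefSeq, both on GRCm38.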

Additional observations from a re-analysis of the deposited data

How the results depend on the processing

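Mt1 in tumour cells was higher in WQ-2101 under all 13 alternatives, with a log2 ratio of 0.84 to 1.14 against 1.04, and Mt2 under all 13, with 0.56 to 0.84 against 0.80. Slc30a1 (−0.44 to −0.27, against −0.30) and Mtf1 (−0.28 to −0.19, against −0.20) were lower under all 13. For Mt1 the values were 1.03 with called doublets kept, 0.84 with equal cluster shares, 1.10 with cells weighted alike, 1.07 with median ratio scaling, 1.02 with the per-cell marker gate, 1.07 at Leiden resolution 2, 1.07 without the top 1% of cells, 1.09 with cluster 9 counted as tumour, 0.92 without cluster 3 and 0.95 at 5000 to 20000 UMIs. In the same settings Mt2 moved to 0.56 with equal shares, 0.84 with cells weighted alike, 0.83 with median ratio scaling, 0.84 without the top 1%, and 0.72 both without cluster 3 and at 5000 to 20000 UMIs. Slc30a1 was −0.44 with a pseudocount of 1 CPM and −0.38 with equal shares, and Mtf1 −0.28 with cells weighted alike. In macrophages Mt1 (0.40) and Mt2 (0.42) were 0.44 and 0.49 with cells weighted alike, 0.63 and 0.69 with the gate, 0.47 and 0.52 at resolution 2, and 0.29 and 0.26 with tumour RNA subtracted. A first, looser gate was tried and dropped, since it took in 1345 WQ-2101 and 55 vehicle droplets of cluster 9 as macrophages. It gave 1.14, 0.84 and −0.42 for Mt1, Mt2 and Slc30a1 in tumour cells, and 1.03 and 1.23 for Mt1 and Mt2 in macrophages. The gates, cluster 9, cluster 3, depth range and subtraction were set or added after the data were seen. The share of tumour cells with an Mt1 UMI was 84.3% in WQ-2101 and 66.2% in vehicle at 1000 UMIs, and 99.2% and 98.2% unthinned. For Mt2 it was 51.8% and 35.3% at 1000 UMIs, and 95.2% and 91.2% unthinned. With a pseudocount of 1 CPM, 4 genes of the inducer and state lists were lower past 1.5-fold in tumour cells, against 2. The cause of these shifts was not tested. No value reversed. No paired analysis was possible because each group had 1 library, and no library could be left out.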
